A study of Mus musculus with 12 samples.

Results

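The genes described here are 8 annexins, Anxa1, Anxa2, Anxa3, Anxa4, Anxa5, Anxa6, Anxa7 and Anxa11, and S100a10, the partner protein of Anxa2. They are 9 of the 24318 gene rows of the deposited tables, and each was found by its gene name. The set was chosen from gene names with earlier results of these comparisons known, the lower Anxa2 level in vesicle-treated cells among them, so the differences between groups are given as a description and support nothing beyond themselves.

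The libraries came from N2a cells, a mouse neuroblastoma line. Brain-derived extracellular vesicles (BDEVs), the small membrane-bound particles that cells release, were given to the cells of the SE-BDEV and CON-BDEV groups, and the Vehicle group had none. Each of the 3 groups had 4 libraries, 12 in all, prepared with a directional kit after polyA selection. SE is read from the series title as status epilepticus, a prolonged seizure, and the labels do not spell out CON. All groups are 1 cell line with no genetic change named. The labels give neither the dose, nor the exposure time, nor the animals behind the vesicles. Whether replicate libraries came from separate cultures is likewise not labelled, and the p-values here may rest on technical spread alone. In the numbered library names, SE-BDEV and CON-BDEV libraries alternate and all Vehicle libraries follow. Whether the names give an order of handling is not labelled. Such an order could not be told apart from vesicle treatment.

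Annexins are soluble proteins that bind acidic phospholipids on the inner face of membranes when calcium rises. Each carries a conserved core of calcium-binding repeats and an N-terminal tail that differs between family members and binds partners. Anxa2 and a dimer of S100a10 form a stable complex that links membranes to cortical actin, takes part in exocytosis and in channel trafficking, and at the cell surface helps the activation of plasminogen. S100a10 protein is known to be degraded when it is not bound to Anxa2. In brain, S100a10 is also known as p11, a partner of serotonin receptors. Anxa5 binds exposed phosphatidylserine and is the standard probe of dying cells and of vesicle surfaces.

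Expression is given as FPKM, a fragment count divided by transcript length and by library size, so levels can be set side by side between genes. In Vehicle libraries S100a10 was highest at 291 ± 9.71 FPKM, which placed it 253rd among 11302 genes of at least 1 FPKM. Anxa6, the annexin with a doubled core, followed at 164 ± 3.35 FPKM, rank 474. Anxa2 stood at 77.3 ± 1.93 FPKM, rank 1150, and Anxa5 at 72.3 ± 2.42 FPKM, rank 1246. Anxa7, which binds the calcium sensor sorcin, had 20.5 ± 1.37 FPKM and rank 4604. Anxa4, an annexin of epithelial and secretory membranes, had 8.71 ± 0.368 FPKM and rank 7594. Anxa11, which tethers RNA granules to lysosomes, had 2.90 ± 0.275 FPKM and rank 10025. All of these are means ± SD over 4 libraries.

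Anxa1, known from anti-inflammatory signalling, averaged 0.312 ± 0.130 FPKM in Vehicle libraries (SD, n = 4), and Anxa3 was listed at 0 in all 4. Among the other 4 annexin rows of the tables, Anxa9 averaged 2.83 ± 0.572 FPKM with SE-BDEVs, 3.24 ± 0.248 FPKM with CON-BDEVs and 3.27 ± 0.325 FPKM in Vehicle libraries (SD, n = 4 each). Anxa8, Anxa10 and Anxa13 stayed far below 1 FPKM. Thus 7 of 12 annexin rows reached a mean of 1 FPKM.

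**Figure D1:**
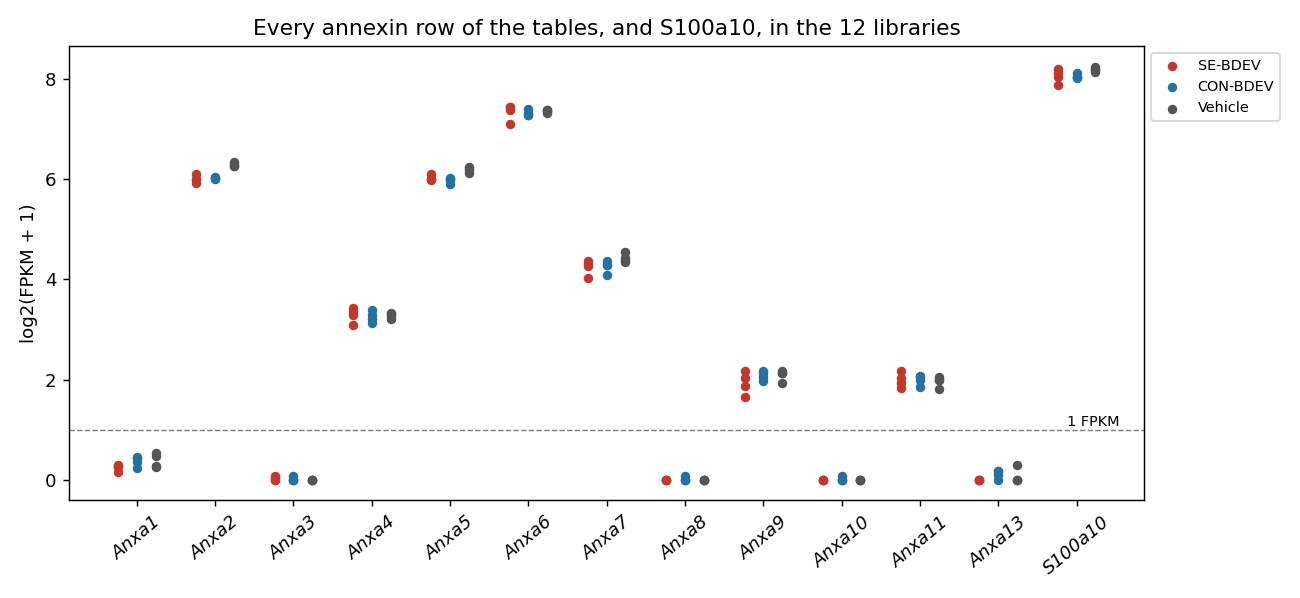
Levels of all 12 annexin rows and S100a10, as log2(FPKM + 1), with 1 point per library (SE-BDEV red, CON-BDEV blue, Vehicle grey; the dashed line marks 1 FPKM). S100a10 and Anxa6 stand highest in every group, and Anxa1, Anxa3, Anxa8, Anxa10 and Anxa13 lie below the line in all 12 libraries.

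The order of the members by mean level was the same in the 3 groups except at 1 place. From high to low it ran S100a10, Anxa6, then Anxa2 and Anxa5, then Anxa7, Anxa4, Anxa11, Anxa1 and Anxa3. Anxa5 stood just above Anxa2 with SE-BDEVs, and Anxa2 above Anxa5 with CON-BDEVs and in Vehicle libraries. The ranges of Anxa2 and Anxa5 overlapped in both BDEV groups and not in Vehicle libraries, and the ranges of all other neighbours in the order did not overlap in any group.

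In the deposited tables, on mouse build mm9, Anxa2 spans chr9:69301489-69339592, S100a10 chr3:93359038-93368567 and Anxa5 chr3:36347845-36374809. Anxa6 lies at chr11:54792463-54846973, Anxa7 at chr14:21274482-21299355 and Anxa11 at chr14:26661640-26706290. Anxa4 lies at chr6:86686833-86743578, Anxa1 at chr19:20447923-20465161 and Anxa3 at chr5:97222403-97274987. In GENCODE M21, built on GRCm38, the antisense gene Gm16144 shares 98 exon bases with Anxa2, Anxa11os shares 113 with Anxa11 and Gm44036 shares 75 with Anxa4. Gm42603, on the same strand, shares 112 exon bases with Anxa3. None of these has a row in the tables, and the strand setting of the counting is not stated, so fragments of these genes cannot be told apart there. Parts of Anxa11 transcripts match the pseudogenes Gm2260 (657 bases at 100% identity) and Gm2274 (609 bases at 99.7%), so the Anxa11 level is uncertain. No other member matched another gene over at least 250 bases at 90% identity or more.

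The promoters of Anxa2 and Anxa5 are shown because these were the members that fell with CON-BDEVs and over all BDEV libraries. Both windows run from 250 bases before to 50 bases from the gene start, 5′ to 3′ on the gene's own strand, and come from RefSeq on GRCm38.p6. Capitals mark matches to any of 6 motifs searched on both strands: the GC box GGGCGG, the CCAAT box, the TATA box TATAAA, the AP-1 site TGANTCA, the E-box CACGTG and the sterol regulatory element TCACNCCAC.
Anxa2 promoter, chr9:69453433-69453732, plus strand: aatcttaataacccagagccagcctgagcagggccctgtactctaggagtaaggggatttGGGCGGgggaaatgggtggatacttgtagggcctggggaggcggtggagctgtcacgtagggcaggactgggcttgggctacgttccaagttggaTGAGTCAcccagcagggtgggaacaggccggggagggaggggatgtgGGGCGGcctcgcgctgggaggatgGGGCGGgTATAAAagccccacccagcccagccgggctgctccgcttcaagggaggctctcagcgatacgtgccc
Anxa5 promoter, chr3:36475838-36476137, minus strand: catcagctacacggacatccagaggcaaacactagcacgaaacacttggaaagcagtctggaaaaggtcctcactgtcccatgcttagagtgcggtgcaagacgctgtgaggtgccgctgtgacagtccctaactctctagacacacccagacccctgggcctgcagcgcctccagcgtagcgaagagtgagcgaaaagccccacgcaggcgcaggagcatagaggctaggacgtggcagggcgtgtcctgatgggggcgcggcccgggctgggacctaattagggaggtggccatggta

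The Anxa2 window held 3 GC boxes, at -190, -48 and -24 from the gene start, an AP-1 match at -95 and a TATA match at -17, none of which overlap. The Anxa5 window held none of the 6 motifs, although its GC content of 60.3% was close to the 63.7% of the Anxa2 window and above the median of 52.7% over all 32851 promoter windows. Over those windows 35.7% held a GC box, 37.4% a CCAAT box, 13.6% TATAAA, 7.81% TGANTCA, 7.15% CACGTG and 1.24% the sterol element. In all, 6 of the 9 members had 8 windows in the RefSeq table, and none of these held the CCAAT box or the sterol element. GC boxes also stood in windows of Anxa4, Anxa7 and Anxa11. The Anxa1 window held a TATA match, and an Anxa7 window held the E-box CACGTG at -113. A match of letters is not a bound site, and whether any motif has a part in the levels was not tested.

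Approximate depth, read from the lowest FPKM values, was 12400000 to 14300000 fragments per library with SE-BDEVs, 12200000 to 13400000 with CON-BDEVs and 13900000 to 14900000 in Vehicle libraries. All CON-BDEV libraries and 3 of 4 SE-BDEV libraries were thus shallower than every Vehicle library, and the part of depth in the differences below was not tested. The identity of the cells was checked with 14 markers of N2a neuroblasts, and all 14 had at least 1 FPKM. Their summed level was 1339 to 1480 FPKM with SE-BDEVs, 1413 to 1496 FPKM with CON-BDEVs and 1336 to 1390 FPKM in Vehicle libraries. Of these 14, 3 rose and 0 fell with SE-BDEVs, beside 0.292% and 0.628% of all genes tested, and 7 rose and 1 fell with CON-BDEVs, beside 1.02% and 1.82%. Markers of other cell types summed to at most 19.9 FPKM for any list and library, that one being the oligodendrocyte list, and Olig1, C1qb, Cldn5, Slco1a4, Lum, Hbb-b1 and Neurod6 were listed at 0 in all 12 libraries. Of 8 astrocyte markers only Aldoc reached a mean of 1 FPKM over the 12 libraries. Aldoc averaged 0.905 FPKM with SE-BDEVs, 1.04 FPKM with CON-BDEVs and 1.72 FPKM in Vehicle libraries, so with SE-BDEVs it entered the test only through its Vehicle level, and no test of it is given. Aldh1l1 averaged 0.778 FPKM with SE-BDEVs, 0.691 FPKM with CON-BDEVs and 1.03 FPKM in Vehicle libraries. The astrocyte sums were 1.51 to 2.09 FPKM with SE-BDEVs, 1.52 to 2.08 FPKM with CON-BDEVs and 2.75 to 2.95 FPKM in Vehicle libraries. Whether these marker levels have a part in the annexin values was not tested. SE-BDEV replicate 2 was the lowest library of its group for 5 of the 7 members of at least 1 FPKM, namely Anxa2, Anxa5, Anxa6, Anxa7 and S100a10, and the highest for 0.

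Anxa2 was lower in both vesicle groups than in Vehicle cells. Its level was 67.5, 60.0, 62.5 and 63.5 FPKM in SE-BDEV replicates 1 to 4, and 65.0, 62.8, 64.0 and 63.8 FPKM in CON-BDEV replicates 1 to 4. In Vehicle replicates 1 to 4 it was 79.9, 75.7, 75.9 and 77.5 FPKM. All 8 BDEV libraries lay below the lowest Vehicle library, with a gap between the groups, and the CON-BDEV libraries were the most even, with an SD of 0.922 FPKM. In bulk RNA, less message per cell and fewer cells with the message cannot be told apart.

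Tests were made with limma on log2(FPKM + 1) over every gene whose mean reached 1 FPKM, with a threshold of 0.05 on the adjusted p (Benjamini-Hochberg). Anxa2 fell with SE-BDEVs, at 63.4 ± 3.14 FPKM against 77.3 ± 1.93 FPKM in Vehicle libraries (SD, n = 4 each). That is a log2 fold change of -0.28 ± 0.04 (SE; limma adjusted p = 0.0158). It was the 13th smallest p of 11311 genes. Anxa2 also fell with CON-BDEVs, at 63.9 ± 0.922 FPKM, with a log2 fold change of -0.27 ± 0.03 (SE; limma adjusted p = 0.000887) and the 14th smallest p of 11320 genes. On the scale of FPKM + 1 the level fell by 17.8% with SE-BDEVs and by 17.1% with CON-BDEVs. The SE-BDEV call was lost without any single Vehicle library, at adjusted p values of 0.0764, 0.0595, 0.0682 and 0.0566 without Vehicle replicates 1, 2, 3 and 4, and at 0.0556 with no filter on low values, while the log2 fold change stayed between -0.31 and -0.25 under all 15 alternatives. The CON-BDEV call held under all 15. The fit of all BDEV against Vehicle libraries gave -0.28 ± 0.03 (SE; adjusted p = 0.000727).

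The authors' deposited table gave Anxa2 a log2 fold change of -0.29 with a q-value of 0.0242 for SE-BDEV against Vehicle, and the authors' deposited table for CON-BDEV against Vehicle gave -0.27 with a q-value of 0.00882. In the authors' deposited table these were the only members called in either comparison. The share of all genes called lower in the authors' deposited table was 0.796% with SE-BDEVs and 1.17% with CON-BDEVs. Anxa1 and Anxa3 were not tested in the authors' deposited table.

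S100a10 did not pass the test in either comparison with Vehicle. Its level was 276, 235, 261 and 295 FPKM in SE-BDEV replicates 1 to 4, and 279, 263, 259 and 262 FPKM in CON-BDEV replicates 1 to 4. In Vehicle replicates 1 to 4 it was 304, 281, 294 and 288 FPKM. The CON-BDEV range ended below the Vehicle range, whereas SE-BDEV replicate 4 lay inside the Vehicle range and replicate 2 well below all others. The log2 fold change was -0.13 ± 0.06 with SE-BDEVs (SE; limma adjusted p = 0.345) and -0.13 ± 0.03 with CON-BDEVs (SE; limma adjusted p = 0.0584). Without CON-BDEV replicate 1 the CON-BDEV difference passed (adjusted p = 0.0192), and in the fit of all 12 libraries its limma adjusted p was 0.287. The authors' deposited table gave S100a10 q-values of 0.665 with SE-BDEVs and 0.459 with CON-BDEVs. Without SE-BDEV replicate 2 the SE-BDEV log2 fold change was -0.07.

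**Figure D2:**
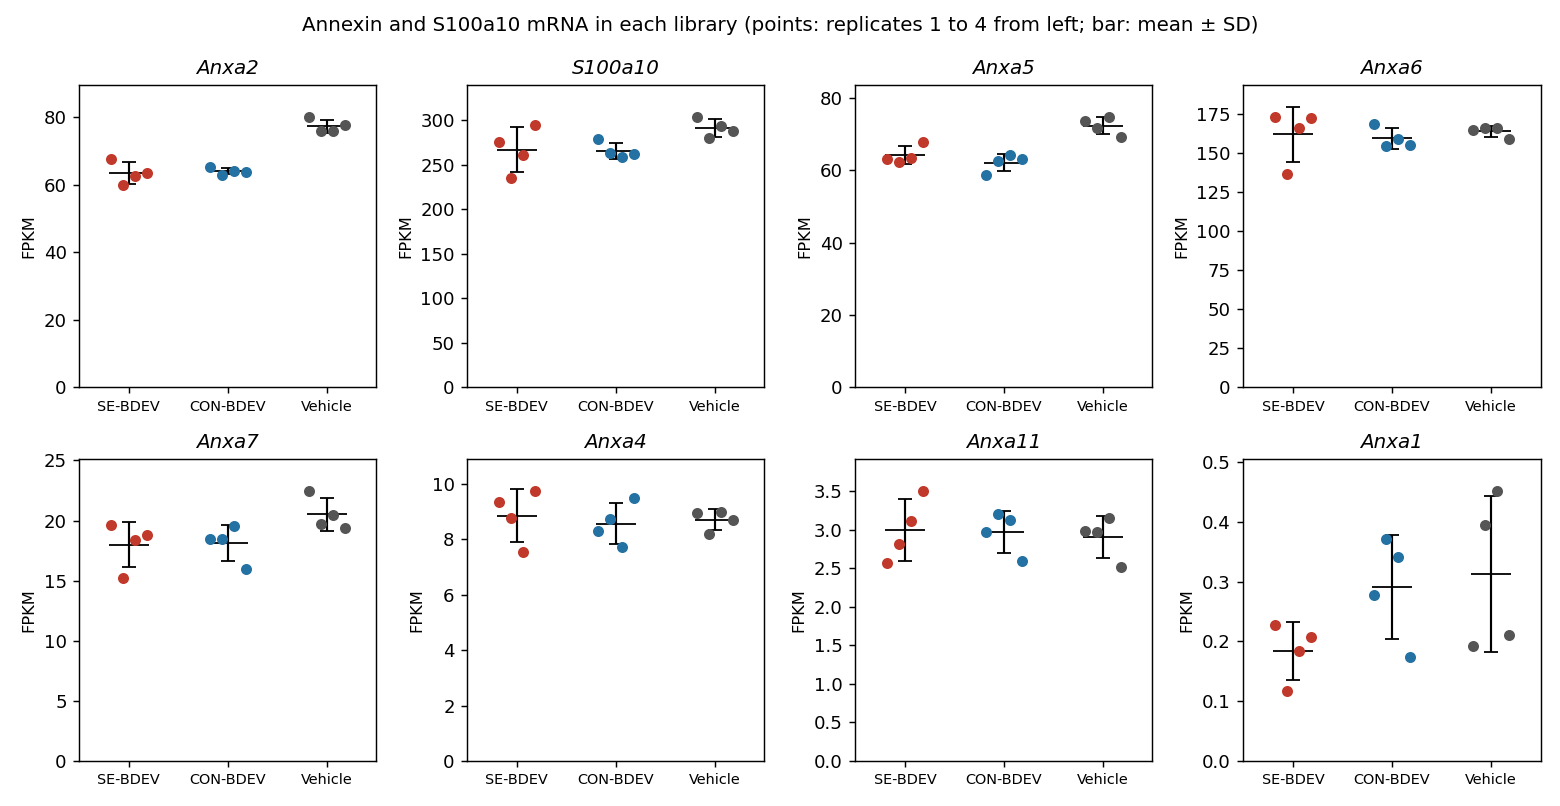
Level in FPKM of 8 members in each library, with replicates 1 to 4 from left in each group and the mean ± SD as a bar (n = 4 each; Anxa3, at or near 0 throughout, is not drawn). For Anxa2 and Anxa5 every SE-BDEV and CON-BDEV point lies below every Vehicle point, and for Anxa4 and Anxa11 the 3 groups overlap.

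Anxa5 was the second member with a gap between vesicle-treated and Vehicle cells. It had 63.2, 62.3, 63.4 and 67.9 FPKM in SE-BDEV replicates 1 to 4, and 58.6, 62.6, 64.1 and 63.1 FPKM in CON-BDEV replicates 1 to 4. In Vehicle replicates 1 to 4 it had 73.6, 71.8, 74.6 and 69.1 FPKM. All 8 BDEV libraries again lay below the lowest Vehicle library, by the least in SE-BDEV replicate 4.

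Anxa5 fell with CON-BDEVs, at 62.1 ± 2.40 FPKM against 72.3 ± 2.42 FPKM in Vehicle libraries (SD, n = 4 each), a log2 fold change of -0.22 ± 0.04 (SE; limma adjusted p = 0.0104) that held under all 15 alternatives. On the scale of FPKM + 1 the level fell by 13.9%. With SE-BDEVs it averaged 64.2 ± 2.52 FPKM, a log2 fold change of -0.17 ± 0.04 (SE; limma adjusted p = 0.0736). That missed the threshold and passed it without SE-BDEV replicate 4 (adjusted p = 0.0427). Over all BDEV libraries against Vehicle the log2 fold change was -0.19 ± 0.03 (SE; adjusted p = 0.00751). The authors' deposited table gave Anxa5 q-values of 0.362 with SE-BDEVs and 0.0624 with CON-BDEVs.

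Anxa7 had wider spread within groups, and its groups overlapped. Its values were 19.6, 15.3, 18.4 and 18.8 FPKM in SE-BDEV replicates 1 to 4, and 18.4, 18.5, 19.6 and 15.98 FPKM in CON-BDEV replicates 1 to 4. The Vehicle libraries had 22.5, 19.7, 20.5 and 19.4 FPKM. Of the 8 BDEV libraries 6 lay below all Vehicle libraries, and the others, SE-BDEV replicate 1 and CON-BDEV replicate 3, lay just above the lowest Vehicle library. The log2 fold change was -0.18 ± 0.07 with SE-BDEVs (SE; adjusted p = 0.279) and -0.17 ± 0.06 with CON-BDEVs (SE; adjusted p = 0.165), neither past the threshold.

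Anxa6, the most abundant annexin message, showed no gap between groups. It had 173, 136, 166 and 172 FPKM in SE-BDEV replicates 1 to 4, and 169, 155, 158 and 155 FPKM in CON-BDEV replicates 1 to 4. The 4 Vehicle libraries had 165, 166, 166 and 159 FPKM. SE-BDEV replicate 2 stood apart from all other libraries. SE-BDEV replicates 1 and 4 and CON-BDEV replicate 1 lay above all Vehicle libraries, and CON-BDEV replicates 2, 3 and 4 lay below all of them. The log2 fold change was -0.02 ± 0.07 with SE-BDEVs (SE; adjusted p = 0.904) and -0.04 ± 0.03 with CON-BDEVs (SE; adjusted p = 0.534). Without SE-BDEV replicate 2 the SE-BDEV value changed sign, to 0.06 with an adjusted p of 0.299.

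Anxa4 and Anxa11 lay in 1 band in all groups. Anxa4 had 9.36, 8.79, 7.55 and 9.75 FPKM in SE-BDEV replicates 1 to 4, and 8.29, 8.75, 7.73 and 9.51 FPKM in CON-BDEV replicates 1 to 4. Vehicle libraries had 8.96, 8.21, 9.004 and 8.68 FPKM. All Vehicle libraries lay inside the range of each BDEV group. Anxa11 had 2.57, 2.81, 3.11 and 3.50 FPKM in SE-BDEV replicates 1 to 4, and 2.97, 3.20, 3.12 and 2.59 FPKM in CON-BDEV replicates 1 to 4. The Vehicle values were 2.98, 2.96, 3.15 and 2.51 FPKM, the lowest of all 12 libraries being Vehicle replicate 4. The log2 fold changes of these genes against Vehicle lay between -0.02 and 0.03, each with an SE of 0.06 to 0.09 and a limma adjusted p of at least 0.855. Anxa11 rested on about 91.3 to 137 fragments per library, a counting error of 8.55% to 10.5%, and Anxa2 on about 1750 to 2710 fragments, a counting error of 1.92% to 2.39%.

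Anxa1 and Anxa3 were too low for the test. Anxa1 had 0.228, 0.116, 0.184 and 0.208 FPKM in SE-BDEV replicates 1 to 4, and 0.277, 0.372, 0.341 and 0.174 FPKM in CON-BDEV replicates 1 to 4. In Vehicle replicates 1 to 4 it had 0.192, 0.395, 0.451 and 0.211 FPKM. These correspond to about 2.49 to 10.8 fragments per library, and the ranges of the 3 groups overlapped. Anxa3 was listed above 0 in 3 libraries, SE-BDEV replicate 3 at 0.0520 FPKM, SE-BDEV replicate 4 at 0.0439 FPKM and CON-BDEV replicate 1 at 0.0468 FPKM, each about 1 fragment.

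**Figure D3:**
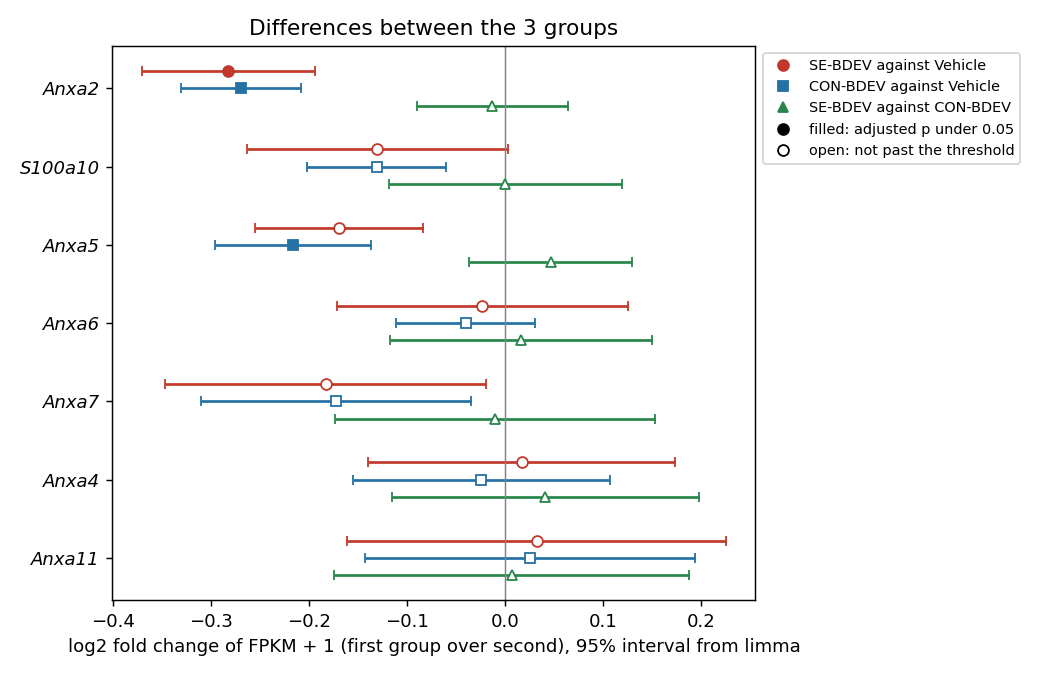
Log2 fold change of FPKM + 1 with its 95% interval from limma for the 7 members tested, in SE-BDEV against Vehicle (red circles), CON-BDEV against Vehicle (blue squares) and SE-BDEV against CON-BDEV (green triangles); filled symbols have an adjusted p under 0.05. Anxa2 is filled in both comparisons with Vehicle and Anxa5 in the CON-BDEV comparison, and every SE-BDEV against CON-BDEV interval includes 0.

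Of the 9 members 7 were tested in each comparison. With SE-BDEVs 1 of the 7 fell and 0 rose, against 0.628% of all genes tested that fell and 0.292% that rose. With CON-BDEVs 2 fell and 0 rose, against 1.82% and 1.02% of all genes. Over all BDEV libraries 2 fell and 0 rose, against 1.84% and 1.53%. The ranges of SE-BDEV and Vehicle libraries did not overlap, with SE-BDEV lower, for 2 members (Anxa2 and Anxa5) and for 4.39% of all genes. For CON-BDEV this held for 3 members, S100a10 being the third, and for 6.24% of all genes. For all 8 BDEV libraries it held for 2 members and for 2.67% of all genes. Because the members were picked with these contrasts known, nothing is read from the shares.

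The median log2 fold change of the 7 tested members was -0.13 with SE-BDEVs and -0.13 with CON-BDEVs, beside 0.01 and 0.00 over all genes tested. At an unadjusted p under 0.05 there were 3 members with SE-BDEVs and 4 with CON-BDEVs, beside 14.8% and 19.1% of all genes. Both comparisons use the same 4 Vehicle libraries, so their likeness is no separate evidence.

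The direct comparison of SE-BDEV with CON-BDEV asks whether the source of the vesicles mattered, which is the question in the title of the series. None of the 7 members passed, and limma called 0% of 11312 genes. At an unadjusted p under 0.05 there were 0 members and 296 genes, 2.62% of those tested. For Anxa2 the log2 fold change was -0.01 (95% interval -0.09 to 0.06), and for Anxa5 it was 0.05 (-0.04 to 0.13). The bounds for Anxa2 are nearer to 0 than its shift of -0.28 against Vehicle. For S100a10 the difference was 0.00 (-0.12 to 0.12) and for Anxa6 0.02 (-0.12 to 0.15). For Anxa7 it was -0.01 (-0.17 to 0.15), for Anxa4 0.04 (-0.12 to 0.20) and for Anxa11 0.01 (-0.17 to 0.19). These intervals bound the difference and do not show that the vesicle kinds act alike.

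Ratios within a library do not depend on its scaling, and they are given as a description without a test. S100a10 stood at 4.09, 3.92, 4.18 and 4.65 times the Anxa2 level in SE-BDEV replicates 1 to 4, and at 4.29, 4.19, 4.05 and 4.11 times in CON-BDEV replicates 1 to 4. In Vehicle replicates 1 to 4 it stood at 3.80, 3.71, 3.87 and 3.71 times. All 8 BDEV libraries thus had a higher ratio than all 4 Vehicle libraries. SE-BDEV replicate 2 at 3.92 was close to the highest Vehicle value of 3.87. Anxa2 is the divisor here, so its lower level in BDEV libraries raises this ratio, and the gap is no separate evidence. The means were 4.21 ± 0.310 with SE-BDEVs, 4.16 ± 0.103 with CON-BDEVs and 3.77 ± 0.0779 in Vehicle libraries (SD, n = 4 each).

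The Anxa2 level relative to Anxa6 was 0.368 to 0.441 with SE-BDEVs, 0.386 to 0.411 with CON-BDEVs and 0.457 to 0.489 in Vehicle libraries. No BDEV library reached the Vehicle range, and here SE-BDEV replicate 2 was the highest of the 8. This ratio likewise carries the lower Anxa2 level and is no separate evidence. Anxa5 relative to Anxa6 was 0.400 ± 0.0401 with SE-BDEVs, 0.391 ± 0.0290 with CON-BDEVs and 0.442 ± 0.00854 in Vehicle libraries (SD, n = 4 each), with SE-BDEV replicate 2 above the Vehicle range at 0.458. Anxa2 relative to Anxa5 overlapped between the groups, at 0.988 ± 0.0574 with SE-BDEVs, 1.03 ± 0.0530 with CON-BDEVs and 1.07 ± 0.0442 in Vehicle libraries (SD, n = 4 each).

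The summed FPKM of the 12 annexin rows was 322 ± 24.3 with SE-BDEVs, 318 ± 5.71 with CON-BDEVs and 349 ± 7.09 in Vehicle libraries (SD, n = 4 each). Anxa6 made up 50.1 ± 1.85% of that sum with SE-BDEVs, 49.97 ± 1.25% with CON-BDEVs and 46.9 ± 0.550% in Vehicle libraries (SD, n = 4 each). Anxa2 made up 19.7 ± 0.924% with SE-BDEVs, 20.1 ± 0.178% with CON-BDEVs and 22.1 ± 0.600% in Vehicle libraries (SD, n = 4 each). SE-BDEV replicate 2, with 47.3% Anxa6, lay inside the Vehicle range of 46.3% to 47.6%.

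**Figure D4:**
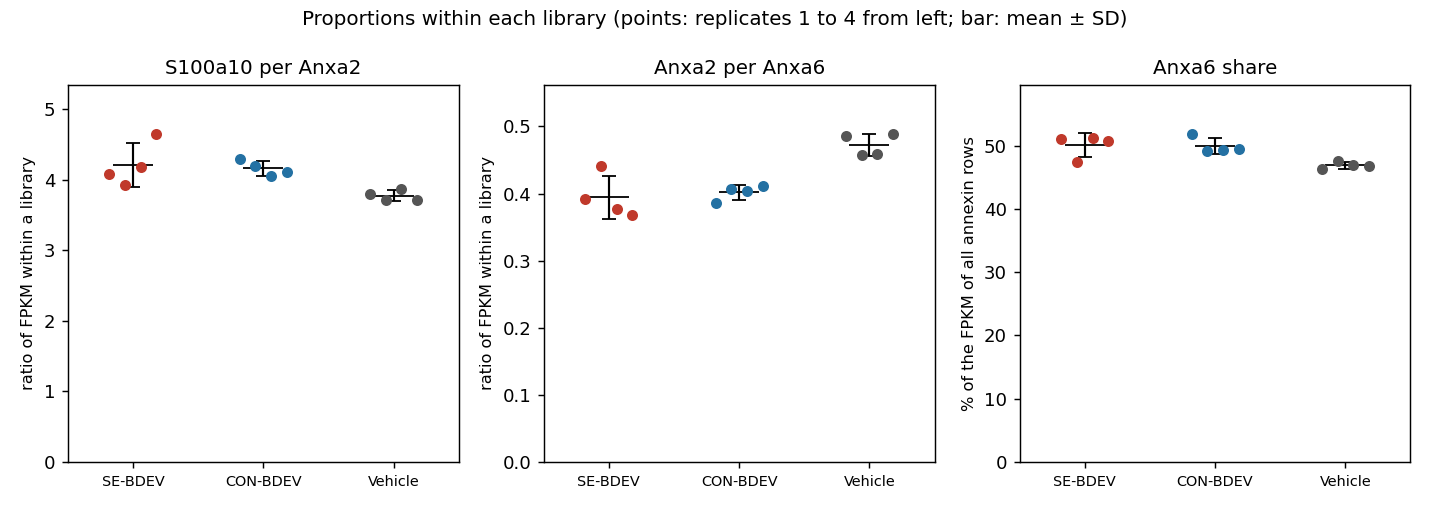
Proportions within each library: S100a10 per Anxa2 and Anxa2 per Anxa6 as ratios of FPKM, and Anxa6 as a percentage of the FPKM of all annexin rows, with replicates 1 to 4 from left and the mean ± SD as a bar (n = 4 each). The first ratio is higher and the second lower in all 8 BDEV libraries than in the 4 Vehicle libraries. The Anxa6 share overlaps only through SE-BDEV replicate 2. Anxa2 enters each of these quantities, so none stands apart from its lower level in BDEV libraries.

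Within groups, some members also varied together from library to library. After the group means were removed, Pearson's r over the 12 libraries was 0.86 between Anxa6 and S100a10, 0.74 between Anxa6 and Anxa7, 0.69 between Anxa2 and S100a10 and -0.01 between Anxa2 and Anxa5. Genes of 1 library share its depth and scaling. Without SE-BDEV replicate 2, over 11 libraries, the same 4 values were 0.62, 0.39, 0.41 and -0.27.

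Genes with a pattern like that of Anxa2 were ranked by Pearson's r of log2(FPKM + 1) over the 12 libraries, among 11300 other genes. Among the highest were Pnpla3 (r = 0.970), a lipid droplet acylhydrolase, B4galt6 (r = 0.964), a lactosylceramide synthase, Lss (r = 0.959), the lanosterol synthase of cholesterol synthesis, Lpin1 (r = 0.954), a phosphatidate phosphatase, and Txnrd3 (r = 0.948), a thioredoxin reductase. The r values include the difference between BDEV and Vehicle libraries, and with the group means removed they were 0.54 to 0.82 for these 5 genes, or 0.35 to 0.73 without SE-BDEV replicate 2. All 5 had a negative log2 fold change in both BDEV groups, a sign that the ranking itself favours, and its size was unequal. Lss averaged 17.3 ± 2.23 FPKM with SE-BDEVs, 16.8 ± 1.64 FPKM with CON-BDEVs and 29.6 ± 1.69 FPKM in Vehicle libraries (SD, n = 4 each), a log2 fold change of -0.74 with SE-BDEVs. B4galt6 averaged 18.1 ± 0.602 FPKM with SE-BDEVs, 17.8 ± 0.330 FPKM with CON-BDEVs and 19.97 ± 0.438 FPKM in Vehicle libraries (SD, n = 4 each), a log2 fold change of -0.14 with SE-BDEVs.

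For S100a10 the 6 highest were Sbf1, Nup107, Galnt7, Nomo1, Pcif1 and Slc9a3r1, with r from 0.932 to 0.954. Their r after removal of the group means was 0.89 to 0.93, and 0.74 to 0.88 without SE-BDEV replicate 2. No gene stood among the 6 highest for both Anxa2 and S100a10.

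Among 14 known annexin partners, 13 were tested and 0 rose or fell in any comparison. Their median log2 fold change was 0.01 with SE-BDEVs and 0.03 with CON-BDEVs. The S100 proteins of that list are named here for their known binding to annexins, with their values seen. S100a6 had 249 ± 14.2 FPKM with SE-BDEVs, 245 ± 7.87 FPKM with CON-BDEVs and 259 ± 1.35 FPKM in Vehicle libraries (SD, n = 4 each), a level near that of S100a10. S100a11, the partner of Anxa1 and Anxa2, had 14.5 ± 2.18 FPKM with SE-BDEVs, 15.5 ± 2.59 FPKM with CON-BDEVs and 18.3 ± 1.36 FPKM in Vehicle libraries (SD, n = 4 each; adjusted p = 0.149 and 0.209 from limma against Vehicle). S100a4 had 16.3 ± 1.81 FPKM with SE-BDEVs, 16.8 ± 3.34 FPKM with CON-BDEVs and 13.7 ± 1.02 FPKM in Vehicle libraries (SD, n = 4 each; adjusted p = 0.210 and 0.212 from limma against Vehicle). Of 15 S100 genes other than S100a10, these 3 among them, 6 were tested and 0 passed, with a median log2 fold change of -0.09 with SE-BDEVs and -0.12 with CON-BDEVs.

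The plasminogen system, which the surface complex of Anxa2 and S100a10 serves, was measured by 7 of 15 genes, and 0 passed in any comparison. Their median log2 fold change was -0.09 with SE-BDEVs and -0.07 with CON-BDEVs. Plg, the gene of plasminogen itself, averaged 0.0814 ± 0.0655 FPKM with SE-BDEVs, 0.0388 ± 0.0140 FPKM with CON-BDEVs and 0.0454 ± 0.0487 FPKM in Vehicle libraries (SD, n = 4 each). The nearest to the threshold was Plat, tissue plasminogen activator, named after its values were seen, with 12.4 ± 1.46 FPKM with SE-BDEVs, 12.1 ± 0.736 FPKM with CON-BDEVs and 14.3 ± 0.932 FPKM in Vehicle libraries (SD, n = 4 each; adjusted p = 0.248 and 0.0542 from limma against Vehicle). Of 9 copines, another family of calcium-dependent membrane binders, 5 were tested and 0 passed, with a median log2 fold change of -0.07 in both comparisons with Vehicle.

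Membrane repair, in which annexins act with ferlins and calpains, was measured by 11 of 20 genes, with a median log2 fold change of -0.06 with SE-BDEVs and -0.08 with CON-BDEVs. With SE-BDEVs 0 passed. With CON-BDEVs 1 of the 11 fell and 0 rose, beside 1.82% and 1.02% of all genes tested. That gene was Capn2, a catalytic calpain subunit, at 42.5 ± 2.04 FPKM against 48.3 ± 1.09 FPKM in Vehicle libraries (SD, n = 4 each; log2 fold change -0.18, limma adjusted p = 0.0276). It held under 8 of 15 alternatives and was lost without any of CON-BDEV replicates 3 and 4 and Vehicle replicates 1, 3 and 4, with adjusted p values up to 0.0935. With SE-BDEVs Capn2 averaged 42.8 ± 1.56 FPKM (SD, n = 4; log2 fold change -0.17, adjusted p = 0.0588 from limma), and it passed under 4 of 15 alternatives, at 0.0374 without SE-BDEV replicate 2 among them.

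Of 26 genes that link membranes to the cytoskeleton, 21 were tested, with a median log2 fold change of -0.04 with SE-BDEVs and -0.07 with CON-BDEVs. With SE-BDEVs 0 passed, and with CON-BDEVs 2 fell and 0 rose, beside 1.82% and 1.02% of all genes tested. Msn, or moesin, an actin-membrane linker, had 61.0 ± 0.873 FPKM with CON-BDEVs against 70.3 ± 0.833 FPKM in Vehicle libraries (SD, n = 4 each; log2 fold change -0.20, limma adjusted p = 0.00239), a call that held under all 15 alternatives. Slc9a3r1, a scaffold that binds moesin and its relatives, had 17.1 ± 1.30 FPKM with CON-BDEVs against 22.2 ± 0.762 FPKM in Vehicle libraries (SD, n = 4 each; log2 fold change -0.36, limma adjusted p = 0.0046). It held under 14 of 15 alternatives and was lost in the fit of all 12 libraries (adjusted p = 0.135). There the SE-BDEV libraries, at 17.3 ± 3.71 FPKM (SD, n = 4), add their wider spread. With SE-BDEVs the log2 fold change against Vehicle was -0.37 for Slc9a3r1 (limma adjusted p = 0.187). For Msn, at 62.4 ± 4.80 FPKM with SE-BDEVs (SD, n = 4), it was -0.17 (limma adjusted p = 0.147). Over all BDEV libraries against Vehicle, Msn fell (log2 fold change -0.19, adjusted p = 0.0175), Capn2 fell (-0.18, adjusted p = 0.0126) and Flna, or filamin A, an actin crosslinker, rose (0.13, adjusted p = 0.0367). Of all genes tested there, 1.84% fell and 1.53% rose. Leaving out 1 library ended the Msn call for each Vehicle replicate in turn (adjusted p up to 0.0731), the Capn2 call for Vehicle replicates 1 and 3 (up to 0.0625), and the Flna call for SE-BDEV replicate 3, CON-BDEV replicates 2 and 4 and each Vehicle replicate (up to 0.136). None of these lists passed in any gene between SE-BDEV and CON-BDEV.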

How the data were processed

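Per the submitters' processing notes, reads were handled with TopHat2 and Cuffdiff on mm9; versions, annotation and strand setting are not given there. The authors deposited FPKM values per gene and library in a pair of tables, each BDEV group with the same 4 Vehicle libraries. The median ratio of a Vehicle column between the tables was within 0.0336% of 1, single genes were off that ratio by at most 0.116%, and the mean of both columns was used where all 12 libraries were fitted. Per the file headers, further deposited tables hold the authors' Cuffdiff log2 fold change, p-value and q-value per gene. Depths are estimates from FPKM values up to 0.05 of genes with transcripts of 1500 to 8000 bases in GENCODE M21, read as 1 fragment.

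From the deposited FPKM values, log2(FPKM + 1) was fitted in limma 3.58.1 (R 4.3.3; two-sided, eBayes with trend) for genes whose mean reached 1 FPKM, with p-values adjusted over all genes tested and the group as the sole term. Each BDEV group was compared with Vehicle in its own table (8 libraries), and SE-BDEV with CON-BDEV, or all BDEV with Vehicle, in the fit of 12. Fold changes on this scale understate those of low genes. Similar transcripts were found with BLAST 2.17.0.

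The members and all gene lists were chosen with earlier results of these data known. All members were named whatever their values, list genes where they passed in any comparison (at most the 3 smallest adjusted p-values per list and comparison) and the 6 genes most like Anxa2 and S100a10, of which 1 is not reported here. Alternatives were a pseudocount of 0.1, no filter, a filter of 5 FPKM, median scaling, a replicate block, limma's arrayWeights, the other choice of libraries and leaving out each library. They were applied to the list genes, and the correlations repeated without SE-BDEV replicate 2, after seeing the data.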

Additional observations from a re-analysis of the deposited data

Results flagged for a closer look

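Anxa6 in Vehicle replicate 4 stood at 158.63 FPKM, below the other 3 Vehicle libraries, with a gap to the nearest of them that was 0.868 of the range of the group. Anxa3 in CON-BDEV replicate 1 was listed at 0.0468 FPKM, about 1 fragment, while the other 3 CON-BDEV libraries were at 0. In all, 26 groups of 4 libraries were examined for a single library far from the others, 2 had one, and chance alone gives about 1 in 20. That rate does not apply to Anxa3, because with 3 libraries at 0 the gap equals the range whatever the remaining value.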

How the results depend on the processing

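With SE-BDEVs against Vehicle 1 member was called. The number was 0 with no filter on low values, 2 with median scaling, 2 in the fit of all 12 libraries, and 0 to 2 when 1 library was left out: 0 without Vehicle replicate 1, 2, 3 or 4, and 2 without SE-BDEV replicate 4. With CON-BDEVs it was 2 or 3 under all alternatives run, over all BDEV libraries 2, and between SE-BDEV and CON-BDEV 0. Anxa5 with SE-BDEVs passed in 3 of 15 alternatives (adjusted p = 0.0485 with median scaling, 0.0453 in the fit of 12, 0.0427 without SE-BDEV replicate 4), and S100a10 with CON-BDEVs in 4 of 15 (0.0495 with the filter of 5 FPKM, 0.0474 with median scaling, 0.0297 with arrayWeights, 0.0192 without CON-BDEV replicate 1). Over all genes, limma called 104 with SE-BDEVs (0 to 315 over the alternatives), 321 with CON-BDEVs (133 to 556) and 381 over all BDEV libraries (124 to 902).

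Values that changed sign were small and uncalled. With arrayWeights the log2 fold change was 0.0373 for Anxa6 with SE-BDEVs, 0.0121 for Anxa2 and 0.0306 for Anxa7 between SE-BDEV and CON-BDEV, and 0.00774 for Anxa4 over all BDEV libraries. With median scaling it was -0.00391 for S100a10 between SE-BDEV and CON-BDEV. Leaving out 1 library gave, with SE-BDEVs, -0.026 to 0.084 for Anxa4, -0.0567 to 0.057 for Anxa6 and -0.0263 to 0.085 for Anxa11. With CON-BDEVs it gave -0.0702 to 0.0187 for Anxa4 and -0.0246 to 0.0731 for Anxa11. Between SE-BDEV and CON-BDEV it gave -0.0433 to 0.0128 for Anxa2, -0.00193 to 0.108 for Anxa4, -0.0166 to 0.097 for Anxa6, -0.066 to 0.0625 for Anxa7, -0.0519 to 0.0595 for Anxa11 and -0.0494 to 0.059 for S100a10. Over all BDEV libraries it gave -0.0291 to 0.0299 for Anxa4, -0.0484 to 0.00838 for Anxa6 and -0.0211 to 0.0599 for Anxa11. The cause of these changes was not tested.

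Same-numbered libraries did not deviate together throughout (r of -0.123 to 0.298, above 0.1 in 2 of 12 pairs). Libraries of different number had r of -0.331 to 0.181, above 0.1 in 5 of 36 pairs. The 2 highest r were between SE-BDEV and CON-BDEV libraries, 0.298 for replicate 2 and 0.196 for replicate 1. For replicates 3 and 4 of these groups r was -0.0738 and -0.123. The numbers were not taken as pairs in the main fits. With the replicate block 1 member was called with SE-BDEVs (Anxa2, adjusted p = 0.0325), 2 with CON-BDEVs (Anxa2 0.00815, Anxa5 0.0448), 2 over all BDEV libraries and 0 between SE-BDEV and CON-BDEV, and 48, 135, 256 and 0 genes of all. It ended the Capn2 call with CON-BDEVs (adjusted p = 0.1) and the Flna call over all BDEV libraries (0.0521). Depth limits Anxa1 and Anxa3, at about 10.8 fragments or fewer per library.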
